A study of Homo sapiens with 2 samples.

Results

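The 6 genes examined here belong to the contractile actin cytoskeleton and to focal adhesions, and ADAR1 binding to their RNA was read in U87MG cells, a human glioblastoma line that carries the label astrocytoma as well. They are MYH9, MYH10, ACTN1, ACTN4, TLN1 and VCL. A cluster, a stretch of RNA where crosslinked reads piled up, was assigned to a gene when its midpoint lay inside the gene's window on hg19 and on the gene's strand. By that rule the 6 genes held 16 of the 23782 clusters in the deposited list. The study crosslinked RNA to ADAR1 with ultraviolet light and recovered it with a mouse monoclonal antibody (CLIP-seq), from U87MG cells at passage 6, in 2 libraries labelled AB1 and AB2 for the antibody. The catalogue number of the antibody is identical for AB1 and AB2, although the design text speaks of different antibodies, and no control library is among the samples used here. The list stands for the whole series: it has no read counts, scores or library columns, so the depth behind each cluster is unknown and no value below has a replicate error or a test. The authors class each cluster as Alu or non-Alu, Alu being an abundant primate repeat that pairs with a nearby inverted copy to form an RNA duplex.

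ADAR1 is a deaminase that turns adenosines of RNA duplexes into inosines, and most of its known targets in human cells are Alu repeats in introns and in the ends of messenger RNAs. The 6 genes encode the machinery by which a cell pulls on its surroundings. Non-muscle myosin II, whose heavy chains are encoded by MYH9 (IIA) and MYH10 (IIB), slides actin filaments. The alpha-actinins ACTN1 and ACTN4 crosslink those filaments, talin 1 (TLN1) ties integrin receptors to actin, and vinculin (VCL) binds talin under tension and strengthens the link. Contractility and adhesion of this kind are used by glioma cells when they migrate.

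MYH9 and MYH10, and likewise ACTN1 and ACTN4, are paralogs, so their coding sequences are shown here where they are most alike, to show how far a read can be told apart between them. The sequences are from GENCODE release 29, read 5′ to 3′, with 15 bases on either side of the longest identical run, and capitals mark the bases that differ within a pair. Positions count from 1 at the first coding base.
MYH9 coding bases 4301 to 4361: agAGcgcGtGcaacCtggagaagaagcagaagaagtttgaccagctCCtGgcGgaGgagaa
MYH10 coding bases 4415 to 4475: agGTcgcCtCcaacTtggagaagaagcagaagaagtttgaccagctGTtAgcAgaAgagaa
ACTN1 coding bases 950 to 1052: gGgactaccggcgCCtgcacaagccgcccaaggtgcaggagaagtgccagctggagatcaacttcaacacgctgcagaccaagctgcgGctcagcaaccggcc
ACTN4 coding bases 1007 to 1109: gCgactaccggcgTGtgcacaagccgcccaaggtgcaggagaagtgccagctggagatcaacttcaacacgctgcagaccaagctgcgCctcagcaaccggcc
The myosins shared at most 31 identical bases and the actinins 73. MYH9 shared a longer run, 95 bases, with a transcript of MYH11, the smooth muscle myosin heavy chain, and ACTN4 shared 112 bases with its pseudogene ACTN4P1. MYH10, TLN1 and VCL shared no run of 50 bases of coding sequence with a transcript of another gene. How the authors treated reads with several matching places is not given in the sources used here, and whether any cluster overlaps a shared run was not tested.

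Non-Alu clusters outnumbered Alu clusters in these genes, 9 to 7. The non-Alu share was 56.2% (Wilson 95% interval 33.2 to 76.9%, which covers counting error only), beside 15.1% in the whole list (14.6 to 15.5%). MYH9 supplied 5 of the 9. Without MYH9 the share was 36.4%, 4 of 11 clusters, with an interval of 15.2 to 64.6% that reaches almost down to the share of the whole list. The genes differed in class: all 5 clusters of MYH9 were non-Alu, MYH10 and TLN1 had 2 non-Alu clusters and 1 Alu cluster each, and the 2 clusters of ACTN1 and the 3 of VCL were all Alu. ACTN4 had no cluster in the list. Clusters of 1 transcript share their RNA and are not replicates, and the level of each RNA in these cells was not measured here.

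**Figure D1:**
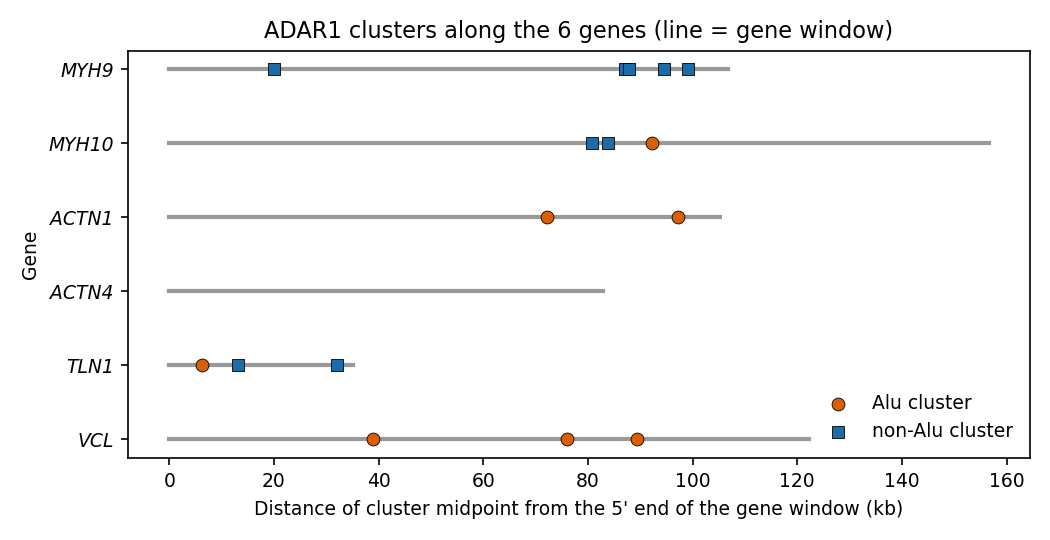
Position of each cluster along its gene, with the distance of the cluster's midpoint from the 5′ end of the gene window in kb on the horizontal axis and 1 line per gene, drawn to the window's length. Squares are non-Alu and circles Alu clusters; 4 of the 5 MYH9 squares lie in the last part of the gene, the MYH10 clusters lie together near the middle, and ACTN4 has no cluster.

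MYH9, the heavy chain of non-muscle myosin IIA, carried the most clusters of the 6 genes. Its window, chromosome 22 from 36677300 to 36784100 on the minus strand (106.8 kb), held 5 clusters or 0.468 per 10 kb. Reading from the 5′ end of the gene, the first lay 20.1 kb in, from 36763971 to 36764090 (120 bases). The other 4 lay between 87.1 and 99.2 kb, that is at 81.6 to 92.9% of the window. They ran from 36696855 to 36697073 (219 bases), from 36696122 to 36696338 (217 bases), from 36689357 to 36689551 (195 bases) and from 36684800 to 36685033 (234 bases). The gap before this group was 66.9 kb, while the gaps inside it were 516, 6570 and 4323 bases. MYH9 therefore had a lone cluster in its 5′ part and a group of 4 toward its 3′ part, all classed as non-Alu by the authors.

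To place this count, each chromosome strand was divided into consecutive windows of the length of MYH9, and those with at least 1 cluster were kept. Of 12358 such windows, 556 (4.50%) held 5 or more clusters of any class. Non-Alu clusters numbered 5 or more in 61 of the windows (0.494%). Among the 556 windows with 5 or more clusters, 31 (5.58%) had no Alu cluster, as MYH9 had none. These windows are not genes and differ in how much they are transcribed. Their edges fall at fixed steps and can cut a gene, while the MYH9 window spans the gene. MYH9 is also the gene with the most clusters among genes chosen with earlier results known. The percentages therefore describe the list and do not test the gene.

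**Figure D2:**
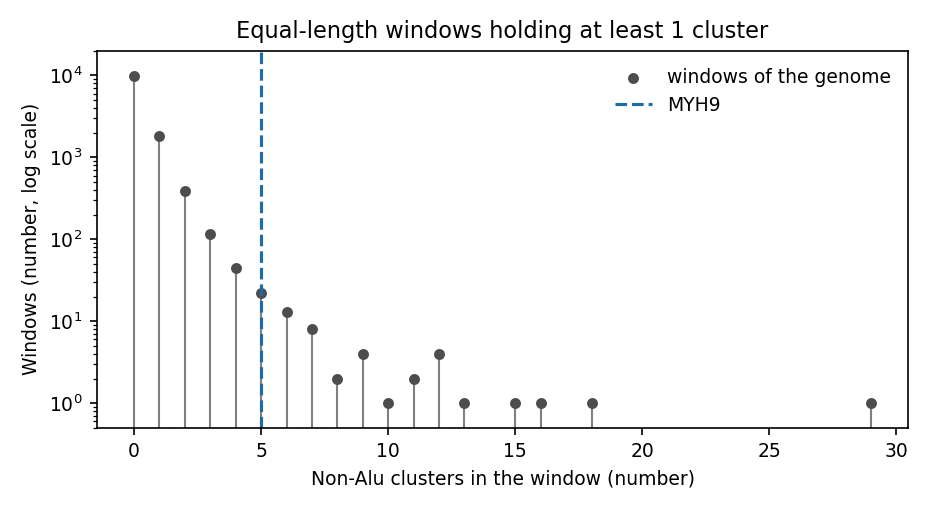
Number of windows of the MYH9 length (vertical axis, log scale) by the number of non-Alu clusters they hold (horizontal axis), over the 12358 windows with at least 1 cluster. The dashed line marks the 5 non-Alu clusters of MYH9; 61 windows lie at or beyond it.

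MYH10, the heavy chain of non-muscle myosin IIB, had fewer clusters over a longer gene. Its window, minus strand of chromosome 17 from 8377500 to 8534100 (156.6 kb), held 3 clusters, 0.192 per 10 kb. The non-Alu clusters ran from 8453242 to 8453405 (164 bases, 80.8 kb from the 5′ end) and from 8450205 to 8450406 (202 bases, 83.8 kb), with 2835 bases between them. The Alu cluster followed at 92.3 kb, from 8441708 to 8441824 (117 bases). All 3 fell within 11.7 kb, at 51.6 to 59.0% of the window, so the last part of the window, where MYH9 had 4 clusters, held none in MYH10. Of the windows of this length with a cluster, 31.2% held 3 or more clusters and 6.10% held 2 or more non-Alu clusters.

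The alpha-actinins, which bundle actin filaments, had few clusters. ACTN1, minus strand of chromosome 14 from 69340800 to 69446100 (105.3 kb), held 2, both Alu. They ran from 69373840 to 69373998 (159 bases, 72.2 kb from the 5′ end) and from 69348864 to 69348979 (116 bases, 97.2 kb), 24.9 kb apart. Of the windows of this length with a cluster, 49.7% held 2 or more clusters and 80.7% held no non-Alu cluster. The counts of ACTN1 were therefore common ones among windows that held a cluster. ACTN4, plus strand of chromosome 19 from 39138300 to 39221200 (82.9 kb), held 0 clusters on either strand. The nearest cluster on its strand lay 13.2 kb upstream of the window and the next one downstream lay 411 kb away. Windows without a cluster were not counted, so no share of equally long empty windows stands beside this gene. Without read counts, an empty gene says that no cluster was listed and not that ADAR1 did not bind.

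TLN1, which encodes talin 1, the integrin-activating adaptor, was the densest of the genes per kb of window. In the GENCODE transcripts used, exons made up 24.9% of the span of TLN1 and at most 7.07% (MYH9) in the other genes. The ranking therefore holds for window length, and density per base of messenger RNA was not computed. Its window, minus strand of chromosome 9 from 35697300 to 35732400, measured 35.1 kb and held 3 clusters, 0.855 per 10 kb. The Alu cluster lay nearest the 5′ end, at 6.26 kb, from 35726066 to 35726209 (144 bases). The non-Alu clusters lay at 13.2 kb, from 35719110 to 35719242 (133 bases), and at 32.1 kb, from 35700169 to 35700374 (206 bases). The last of these was 2.97 kb from the 3′ end of the window, the closest of all 16 clusters to the end of a gene. Of 17210 windows of the TLN1 length with a cluster, 7.11% held 3 or more clusters and 2.81% held 2 or more non-Alu clusters.

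VCL, which encodes vinculin, the partner of talin at the adhesion, had 3 clusters like TLN1, but all of them were Alu, where TLN1 had 1 Alu and 2 non-Alu clusters. The window on the plus strand of chromosome 10, from 75757800 to 75880000 (122.2 kb), held 3 Alu clusters, 0.245 per 10 kb. They ran from 75796682 to 75796855 (174 bases, 39.0 kb from the 5′ end), from 75833679 to 75833836 (158 bases, 76.0 kb) and from 75847096 to 75847277 (182 bases, 89.4 kb). The gaps were 36.8 and 13.3 kb. Of the windows of this length with a cluster, 25.8% held 3 or more clusters and 79.9% held no non-Alu cluster.

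The genes with non-Alu clusters were the 3 with the longest coding sequences. In GENCODE release 29 the coding sequence measured 7623 bases in TLN1, 6021 in MYH10 and 5880 in MYH9, without the stop codon. It measured 3402 bases in VCL, 2790 in ACTN1 and 2733 in ACTN4, the 3 genes with no non-Alu cluster. Exon numbers fell in the same 2 sets, with 57, 43 and 41 exons in TLN1, MYH10 and MYH9 and 22, 21 and 21 in VCL, ACTN1 and ACTN4. So did the spliced lengths of the GENCODE transcripts used, in the same order 8823, 7762 and 7554 bases and 5490, 2813 and 4963 bases. The ACTN1 transcript used has 2813 bases for 2790 coding bases. It holds almost nothing outside the coding part, so its length cannot be read as that of the whole messenger RNA. With these genes the 3 traits cannot be told apart. The length of the gene did not separate them, since TLN1 had the shortest window and MYH10 the longest. Within the 3 longer genes the number did not follow coding length either, as MYH9, the shortest of them, had 5 non-Alu clusters and the others 2 each. This pattern was noticed in the data, spans 6 genes and was not tested. Whether a cluster lies in an exon or an intron was not analysed here, because the annotation at hand is on GRCh38 and the clusters are on hg19.

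**Figure D3:**
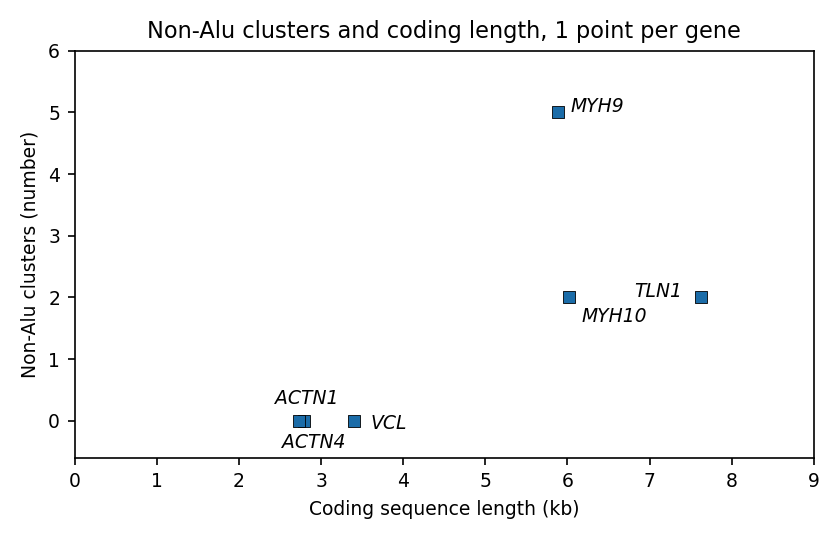
Number of non-Alu clusters (vertical axis) against the coding sequence length in kb from GENCODE release 29 (horizontal axis), 1 point per gene. MYH9, MYH10 and TLN1, with 5880 to 7623 coding bases, have 5, 2 and 2 non-Alu clusters, and VCL, ACTN1 and ACTN4, with 2733 to 3402, have 0.

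Across the genes, 12 of the 16 clusters lay past the midpoint of their window toward the 3′ end, 7 of the 9 non-Alu and 5 of the 7 Alu clusters. The cluster nearest a 5′ end was the Alu cluster of TLN1, at 6.26 kb. MYH9 gave 4 of the 12 clusters past the midpoint, and the 3 of MYH10 were little past it, at 51.6 to 59.0% of the window. The other clusters of the list were not assigned to genes, so no share over other genes stands beside this count.

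A same-strand neighbour, with at most 1000 bases between the nearest edges, was listed for 2 of the 16 (12.5%), the MYH9 pair separated by 516 bases. In the whole list 6.70% of all clusters and 17.1% of non-Alu clusters had such a neighbour, so 2 among 9 non-Alu clusters is close to the level of the class. The count was 0 within 200 bases and 6 within 5000 bases. The other gaps between consecutive clusters of a gene ranged from 2835 bases in MYH10 to 66.9 kb in MYH9.

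The Alu clusters of these genes lay in the shorter part of their class, but their median was inside its quartiles of 152 and 221 bases. The difference was not tested. Their lengths ran from 116 to 182 bases with a median of 158, and all 7 were under the list's median of 192 bases, as were 49.9% of Alu clusters in the list (counting those at the median). The longest of them, in VCL, was at or above 41.9% of Alu clusters in length. The non-Alu clusters ran from 120 to 234 bases with a median of 202, against 191 for the class, and 6 of the 9 exceeded the list's median, beside 48.6% of the class. The longest of all 16, the 3′-most in MYH9, had 234 bases, at or above 82.0% of non-Alu clusters.

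**Figure D4:**
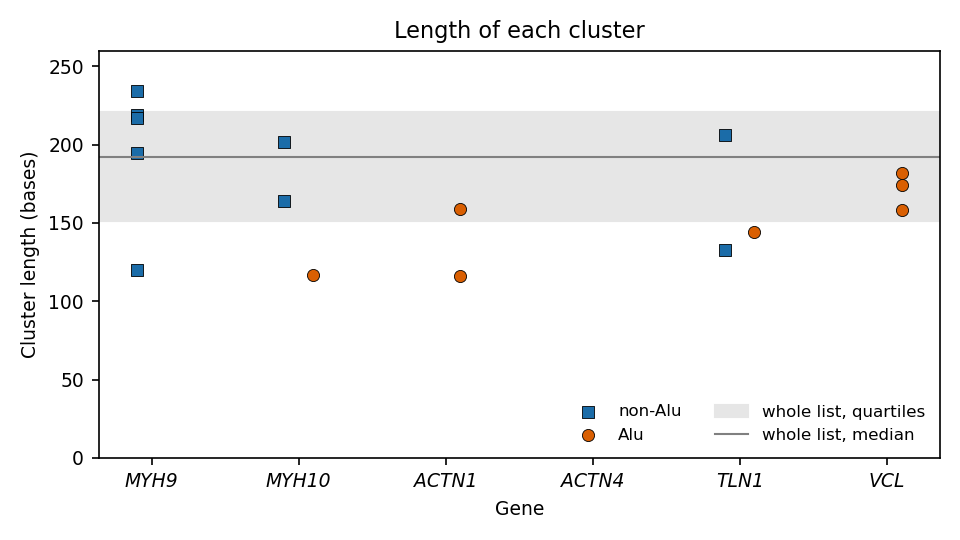
Length in bases of each cluster (vertical axis) by gene, with squares for non-Alu and circles for Alu clusters. The line is the median of the whole list, 192 bases, and the band spans its quartiles; all 7 circles lie below the line and 6 of the 9 squares above it.

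The opposite strand and the surroundings of the genes were counted in the same way. No cluster lay on the opposite strand of any of the 6 windows, while 16 lay on the strand of the gene. The share of other windows with an empty opposite strand was not counted, so no background stands beside this 0. The genes were chosen with earlier results known, so the contrast with the opposite strand and with the flanks is a description only. In flanks as long as the gene itself, the same strand held 7 clusters upstream (3 of them non-Alu) and 4 downstream (1 non-Alu). Together that is 11 clusters, 4 of them non-Alu, over a total length 2 times that of the windows. The gene windows without MYH9 had the same counts, 4 non-Alu among 11 clusters. MYH9 had 1 cluster in each flank, the nearest 53.5 kb downstream of its window and 89.3 kb upstream. ACTN1 had none in either flank, and its nearest neighbours on the strand were 139 kb upstream and 1060 kb downstream. TLN1 had 1 non-Alu cluster 16.2 kb upstream and none downstream for 593 kb. VCL had 2 clusters in each flank, both non-Alu upstream, the nearest 80.6 kb away, and both Alu downstream, the nearest 50.2 kb away. The genes in these flanks were not assigned.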

How the data were processed

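Per the labels' protocols, cells received 2 exposures of 800 mJ/cm2 at 254 nm, and the linked RNA was amplified for 23 PCR cycles and selected at 75 to 250 bp. Per the submitters' processing notes, cutadapt 1.1 and Novoalign 2.08.22 were used on build hg19. The authors deposited 1 list of cluster positions with strand and an Alu or non-Alu class. For the cluster caller and its threshold, the pooling of AB1 and AB2 and the rule for the class, nothing is stated in the sources used. These steps set the number and length of clusters.

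Starts were read as counted from 0 and are printed counting from 1. Gene windows are rounded hg19 positions; their lengths were 96.9 to 100% of the GENCODE release 29 gene lengths, lowest for VCL. GENCODE, on GRCh38, gave gene structure, coding sequences (the transcript with the longest coding sequence) and identical runs, and no positions. A further list of pathway genes fixed for the case of an hg19 annotation was not analysed here. Counts were made in Python 3.11.15 with pandas 2.3.3 and numpy 2.4.6, and intervals with scipy 1.17.1. Gene assignment was tested on simulated data, where the planted clusters of 6 of 6 genes were counted. All 6 genes are described, with every cluster named. The genes and lists were chosen with earlier results of these data known. Alternatives were another overlap rule, wider windows, a length filter, merging, other neighbour distances and leaving out a gene.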

Additional observations from a re-analysis of the deposited data

How the results depend on the processing

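Of 68 alternative values, 58 stayed within a set range, which was 1.5 times for a count and the Wilson interval of 33.2 to 76.9% for the non-Alu share. Any overlap in place of the midpoint, windows widened by 1 kb at both ends, and merging clusters within 50 bases each left 16 clusters, 9 of them non-Alu. These settings could not change a count here. No cluster of the genes lay nearer than 2.97 kb to a window end, and none outside lay nearer than 13.2 kb. The smallest gap between clusters of a gene was 516 bases. The 58 values therefore include many that were fixed in advance and do not measure how stable the counts are. Keeping clusters at or above the median length of 192 bases left 6 clusters, all non-Alu (100%), because the 7 Alu clusters are shorter. By gene, this filter left 4 clusters in MYH9, 1 each in MYH10 and TLN1, and 0 in ACTN1 and VCL. Clusters with a neighbour numbered 0 within 200 bases and 6 within 5000 bases, by construction of the distance. Leaving out 1 gene gave non-Alu shares from 36.4% (without MYH9) to 69.2% (without VCL). These shares were set against the interval of the same 16 clusters, so falling inside it is a weak check. Leaving out ACTN4, which has 0 clusters, could not change the share. No paired analysis was possible because AB1 and AB2 have 1 library each and the deposited positions are given without their library, so neither library could be omitted in turn. With no read counts, depth sets no limit that can be given here, and a gene without a cluster cannot be read as unbound.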
